A study of Mus musculus with 18 samples.

Results

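Arf-B and Arf-C cells, both of ES-E14TG2a origin, a line of mouse embryonic stem cells, were compared with each other at day 8 of a pancreatic differentiation protocol. The comparison covers the 14535 genes of chromosomes 1 to 19 that reached 0.5 FPKM in at least 3 of the 6 libraries, out of 54532 genes in the deposited table. FPKM are fragments per kilobase of gene, scaled to library size. Of these genes, 12211 are protein coding, 12984 reached 0.5 FPKM in all 6 libraries and 1551 in 3 to 5 of them. Among the 1551, 22 genes reached the minimum in all 3 Arf-B and no Arf-C library, and 24 in all 3 Arf-C and no Arf-B library, so these had to differ. By its third-highest value, Gm3248 lay just inside the minimum at 0.5002 FPKM and 2510046G10Rik just outside it at 0.4999 FPKM.

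The series holds 18 libraries of polyadenylated RNA, with 3 replicates each of Arf-B, Arf-C and Ctrlv2 cells at day 0 and at day 8. Arf-B, Arf-C and Ctrlv2 cells of the day 8 groups all received activin A (20 ng/mL) on Matrigel first. From day 4 on, and until day 8, FGF10 (10 ng/mL) and retinoic acid (5 μM/ml as labelled) were given, a sequence aimed at definitive endoderm and then posterior foregut. The growth medium labelled for every library, of day 0 and of day 8, held 15% serum and LIF at 1000 U/mL. The genotype is labelled wild type for Arf-B, Arf-C and Ctrlv2 alike. The sources used here do not state the origin of either Arf line, whether each is 1 clone, or whether replicates are separate cultures, so p-values measure the spread between these samples, which may be technical.

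Cdkn2a encodes p19Arf, named in the title of the series, and p16Ink4a from overlapping reading frames. p19Arf binds Mdm2, the ubiquitin ligase that turns over p53, and so stabilises p53. Activin acts through the same receptors and Smad proteins as Nodal, the ligand that drives mesendoderm formation in the embryo. High signalling of this kind favours definitive endoderm, and its targets include its own inhibitors.

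Cdkn2a (mm10 chromosome 4, 89274471 to 89294653, minus strand) was at 44.7, 43.2 and 40.1 FPKM in Arf-B cells, at 46.3, 42.6 and 43.3 FPKM in Arf-C cells, and at 32.5, 32 and 34.3 FPKM in Ctrlv2 cells at day 8. The Arf-B and Arf-C values overlapped. Between the lines the log2 difference was -0.05 (95% interval -0.28 to 0.19, limma adjusted p = 1). These values are for the whole gene, so transcripts for p19Arf and for p16Ink4a cannot be told apart. At day 0 the gene was at 1.67, 2.14 and 2.15 FPKM in Arf-B cells and at 2.18, 2.31 and 2.37 FPKM in Arf-C cells. Cdkn2b, the neighbouring gene for the cell cycle inhibitor p15Ink4b, averaged 4.39 ± 0.507 FPKM in Arf-B cells and 4.55 ± 0.254 FPKM in Arf-C cells (SD, n = 3 each). Trp53, the gene for p53, was at 49.7, 51.6 and 53.4 FPKM in Arf-B cells and at 49.4, 41.1 and 46.2 FPKM in Arf-C cells. All 3 Arf-B values lay above the Arf-C values, but the difference of 0.18 (interval 0.02 to 0.34) was not called (adjusted p = 0.853). Mdm2 (log2 difference 0.04, interval -0.14 to 0.22), the p53 target Cdkn1a (0.09, interval -0.18 to 0.36) and Npm1, whose protein p19Arf binds in the nucleolus (0.03, interval -0.20 to 0.25), were not called. Of a list of 28 p53 targets 26 were measured, and 0 were called by limma, 0 had an unadjusted p below 0.05 and 0 were called with voom weights on the read numbers. Their median difference was 0.01. The most abundant, the cyclin gene Ccng1, averaged 136 FPKM in Arf-B cells and 132 FPKM in Arf-C cells, and the apoptosis gene Bax averaged 100 FPKM in Arf-B cells and 105 FPKM in Arf-C cells.

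Reads on genes came to 17103466 to 22222425 per Arf-B library and 14598683 to 15678839 per Arf-C library, so every Arf-B library was deeper than every Arf-C library. With all libraries thinned to the reads of the smallest, the 8 genes called below were all called again, among 11 in total. No pair of replicates was identical or agreed within sampling noise. Over all 14535 genes the median absolute log2 difference was 0.067 between Arf-B and Arf-C means. It was 0.202 between Arf-B and Ctrlv2 means, and 0.202 between Arf-C and Ctrlv2 means. Between single libraries the median absolute difference was 0.088 to 0.122 for the 6 pairs within a line, and 0.100 to 0.121 for the 9 pairs of an Arf-B and an Arf-C library.

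Across all genes, 8 of the 14535 were called between Arf-B and Arf-C at day 8 (limma on log2(FPKM + 1), Benjamini-Hochberg adjusted p below 0.05 over the 17200 genes tested in the series). That is 0.055% of the genes, with 4 higher in Arf-B cells (0.0275%) and 4 lower (0.0275%). The genes higher in Arf-B cells were Lefty1, Lefty2, Hist1h1c and the small nuclear RNA gene Gm25579. The genes lower in Arf-B cells were Peg10, Mest, Ubap2l and the ribosomal RNA gene CT010467.1. At an unadjusted p below 0.05 there were 770 genes, or 5.3%, the share to set beside the list counts at that level. With voom 6 genes were called (0.0413%), of which 5 were among the 8. The values of the lines did not overlap for 1949 genes (13.4%), of which 957 had Arf-B above Arf-C (6.58%) and 992 had Arf-C above Arf-B (6.82%). The median 95% interval reached 0.21 log2 units to either side of a difference, and the smallest difference called was 0.60. A log2 difference of at least 1 was measured for 28 genes. Of these, 5 were called (0.0344% of all genes). Among the 23 others, 16 were genes of small or ribosomal RNAs and 2 were protein coding, Tdgf1 and Gm17545.

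**Figure D1:**
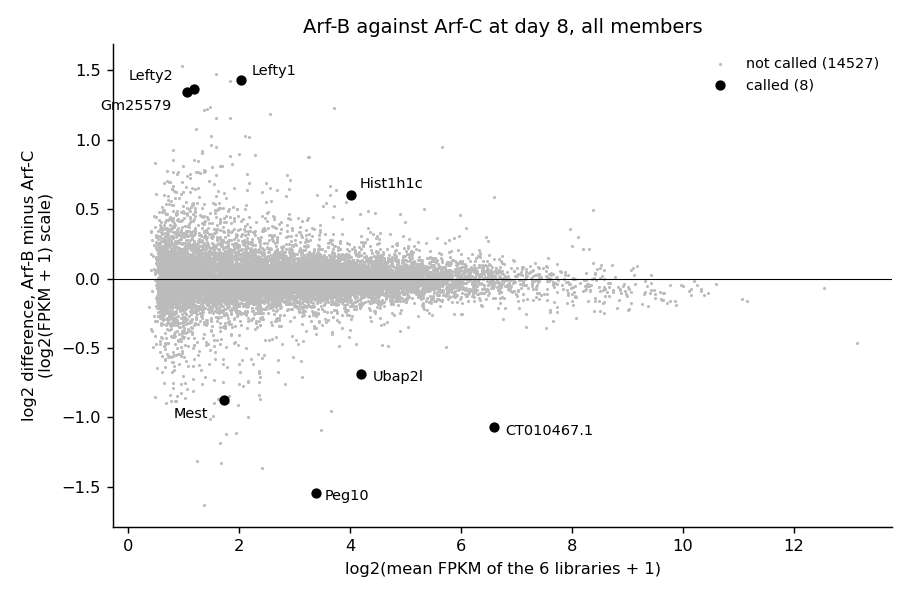
Each point is 1 of the 14535 genes, placed by log2 of the mean FPKM of the 6 libraries plus 1 (x axis) and by the log2 difference Arf-B minus Arf-C at day 8 (y axis). The 8 called genes are black and named, 4 above 0 and 4 below, and the other points lie mostly close to 0.

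In the Nodal and activin pathway, the inhibitor genes Lefty1 and Lefty2 were higher in Arf-B cells. They encode secreted inhibitors of Nodal that are themselves induced by Smad2 and Smad3. Both lie on mm10 chromosome 1, Lefty2 from 180893108 to 180899103 and Lefty1 from 180935022 to 180938400, both on the plus strand. Lefty1 was at 3.31, 6.46 and 5.21 FPKM in Arf-B cells and at 1.14, 1.06 and 1.32 FPKM in Arf-C cells. Every Arf-B library lay above every Arf-C library, with the Ctrlv2 libraries at 1.4, 2.79 and 2.65 FPKM. The log2 difference between Arf-B and Arf-C was 1.43 (SE 0.187, adjusted p = 0.00441). Lefty2 was at 1.6, 2.06 and 3.2 FPKM in Arf-B cells, at 0.0463, 0.201 and 0.554 FPKM in Arf-C cells, and at 2.71, 3.35 and 3.6 FPKM in Ctrlv2 cells. The low Arf-C values rest on 2, 9 and 23 reads, against 101, 100 and 189 reads in the Arf-B libraries. Its log2 difference was 1.36 (SE 0.175, adjusted p = 0.00398), which understates the change of a gene this low because of the added 1. With a pseudocount of 0.1 in place of 1 the log2 difference was 2.90.

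The Lefty1 and Lefty2 calls were not past the threshold in a fit of the 6 libraries compared alone (adjusted p = 0.26 and 0.424), nor with voom weights on the read numbers (adjusted p = 0.0662 and 0.165). Their transcripts are near copies in part. Of the stretches of 50 bases of an annotated Lefty1 transcript (GENCODE), 17.9% also occur in one of Lefty2, so how reads were shared between the genes is uncertain. Of the 17 measured genes within 500 kb of Lefty1, Lefty2 was the one called.

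The coreceptor and the ligand of the pathway were measured beside its inhibitors. Tdgf1 encodes Cripto, the coreceptor through which Nodal binds its receptors. It was at 4.04, 6.18 and 4.27 FPKM in Arf-B cells, at 1.87, 1.83 and 1.78 FPKM in Arf-C cells, and at 3.96, 1.8 and 1.6 FPKM in Ctrlv2 cells. The lines did not overlap, but the log2 difference of 1.03 (interval 0.64 to 1.42) missed the threshold with an adjusted p of 0.0654. It was past it with voom weights (adjusted p = 0.0304). Nodal itself was at 7.34, 8.01 and 9.9 FPKM in Arf-B cells and at 5.71, 8.28 and 8.38 FPKM in Arf-C cells, which overlapped. Its log2 difference was 0.16 (interval -0.17 to 0.49).

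The transducers Smad2 (-0.01, interval -0.12 to 0.11) and Smad3 (0.02, interval -0.14 to 0.17) were not called. The receptor genes Acvr1b (0.12), Acvr2a (-0.05) and Acvr2b (-0.09) were not called either. Of the 15 genes of the Nodal and activin list 13 were measured. Of these, 2 were called higher in Arf-B cells, against 0.0275% of all genes, and none lower. The median log2 difference of the 13 was 0.12, against -0.002 over all 14535 genes. Of the 13, 10 lay above 0, against 7166 of all 14535 genes. Because bulk RNA was measured, fewer expressing cells and less RNA per cell cannot be told apart for these genes.

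**Figure D2:**
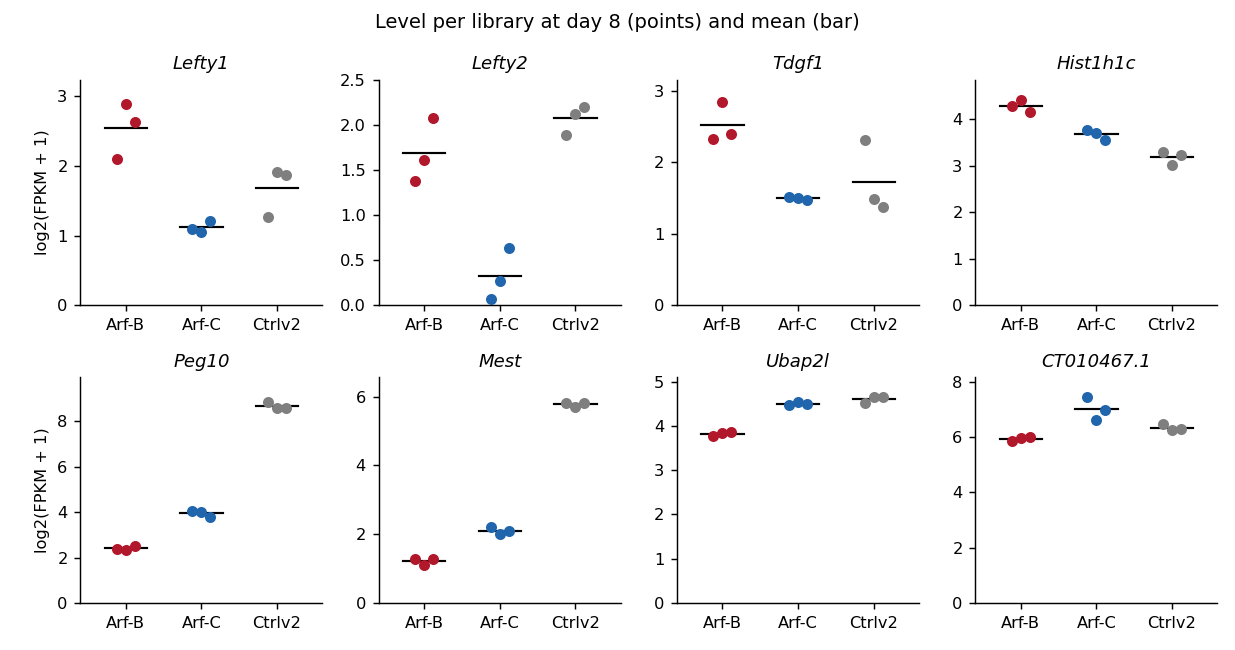
Levels of 7 called genes and of Tdgf1 at day 8 as log2(FPKM + 1) (y axis), with 1 point per library and a bar at the mean of 3, for Arf-B (red), Arf-C (blue) and Ctrlv2 (grey) cells. Lefty2 in Arf-C cells (0.0463 to 0.554 FPKM) lies below Arf-B and Ctrlv2 cells, while Peg10 and Mest lie far below Ctrlv2 cells in both Arf lines.

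Imprinted genes gave the calls with the smallest p-values in the opposite direction. Peg10 (mm10 chromosome 6, 4747306 to 4760517, plus strand) is a paternally expressed gene derived from a retrotransposon and is needed for placenta formation. It was at 4.14, 4.06 and 4.7 FPKM in Arf-B cells and at 15.7, 14.9 and 12.9 FPKM in Arf-C cells. The spread within each line was small beside the gap between them, and the Ctrlv2 libraries stood at 460, 383 and 379 FPKM. The log2 difference between Arf-B and Arf-C was -1.54 (SE 0.0974, adjusted p = 1.08e-06). It was past the threshold in each of the 16 alternative fits, with adjusted p-values of 3.94e-10 to 0.00431.

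Mest (mm10 chromosome 6, 30723547 to 30748465, plus strand), also called Peg1, is another paternally expressed gene and encodes a protein with a hydrolase fold. It was at 1.44, 1.15 and 1.45 FPKM in Arf-B cells, at 3.66, 2.98 and 3.24 FPKM in Arf-C cells, and at 54.9, 51 and 55.4 FPKM in Ctrlv2 cells. Both Arf lines were far below Ctrlv2 cells, and Arf-B cells were the lower of the pair. The log2 difference between Arf-B and Arf-C was -0.87 (SE 0.0923, adjusted p = 0.000498). It missed the threshold in the fit of the 6 libraries alone (adjusted p = 0.104). Copg2 overlaps the 3' end of Mest on the opposite strand, and the sources used here do not state whether reads were counted by strand, so reads of that stretch cannot be assigned. Copg2 itself was at 18.7, 18.4 and 18.8 FPKM in Arf-B cells and at 20.8, 19.9 and 19.7 FPKM in Arf-C cells (log2 difference -0.11, interval -0.24 to 0.03).

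The promoter of Mest holds CpG sites whose methylation differs between the parental copies in mouse. Its sequence is shown because the level of this gene sets both Arf lines and Ctrlv2 cells apart. More than 1 start site is listed for Mest. The 250 bases before the second of these (RefSeq, GRCm38.p6, chr6:30737800-30738049, plus strand) are given 5' to 3', with the 14 CpG sites in capitals. Over the 10112 genes with a promoter in that table, the median was 16 CpG sites (quartiles 10 and 23). These were counted in the same window at the first start site listed for each gene.
Mest: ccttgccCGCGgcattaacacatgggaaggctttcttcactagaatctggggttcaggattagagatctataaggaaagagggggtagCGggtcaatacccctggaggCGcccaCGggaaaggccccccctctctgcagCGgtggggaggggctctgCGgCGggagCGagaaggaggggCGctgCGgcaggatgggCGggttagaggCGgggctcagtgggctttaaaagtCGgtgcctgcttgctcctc

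None of the remaining imprinted genes was called between the lines. Of 35 listed genes 28 were measured, with 2 called lower in Arf-B cells and none higher. The median log2 difference of the 28 was 0.03, against -0.002 over all genes. Of the 28, 5 had an unadjusted limma p below 0.05 (5.3% of all genes). Without overlap, 5 had Arf-B above Arf-C (6.58% of all genes). Another 4, Peg10 and Mest included, had Arf-C above Arf-B (6.82% of all genes). Casd1, the nearest measured gene upstream of Peg10, was at 15.1, 15.1 and 14.1 FPKM in Arf-B cells and at 14.1, 13 and 13.6 FPKM in Arf-C cells. Ppp1r9a, the nearest measured gene on the other side, averaged 6.85 ± 0.446 FPKM in Arf-B cells and 6.64 ± 0.412 FPKM in Arf-C cells. None of the 4 measured genes within 500 kb of Peg10 was called, and none of the 7 around Mest, and 0 of these had an unadjusted limma p below 0.05 or a call with voom. Sgce, also on the imprinted list, did not reach the minimum, so it is not among the genes measured around Peg10. The growth regulators Igf2 (0.08, interval -0.11 to 0.27), H19 (-0.04, interval -0.30 to 0.23) and Dlk1 (0.25, interval -0.07 to 0.58) were not called. Slc38a4, an amino acid transporter gene, was at 63.2, 60.7 and 67.1 FPKM in Arf-B cells and at 51.7, 50 and 53.5 FPKM in Arf-C cells. Its lines did not overlap, and the difference of 0.29 was not called (adjusted p = 0.21).

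**Figure D3:**
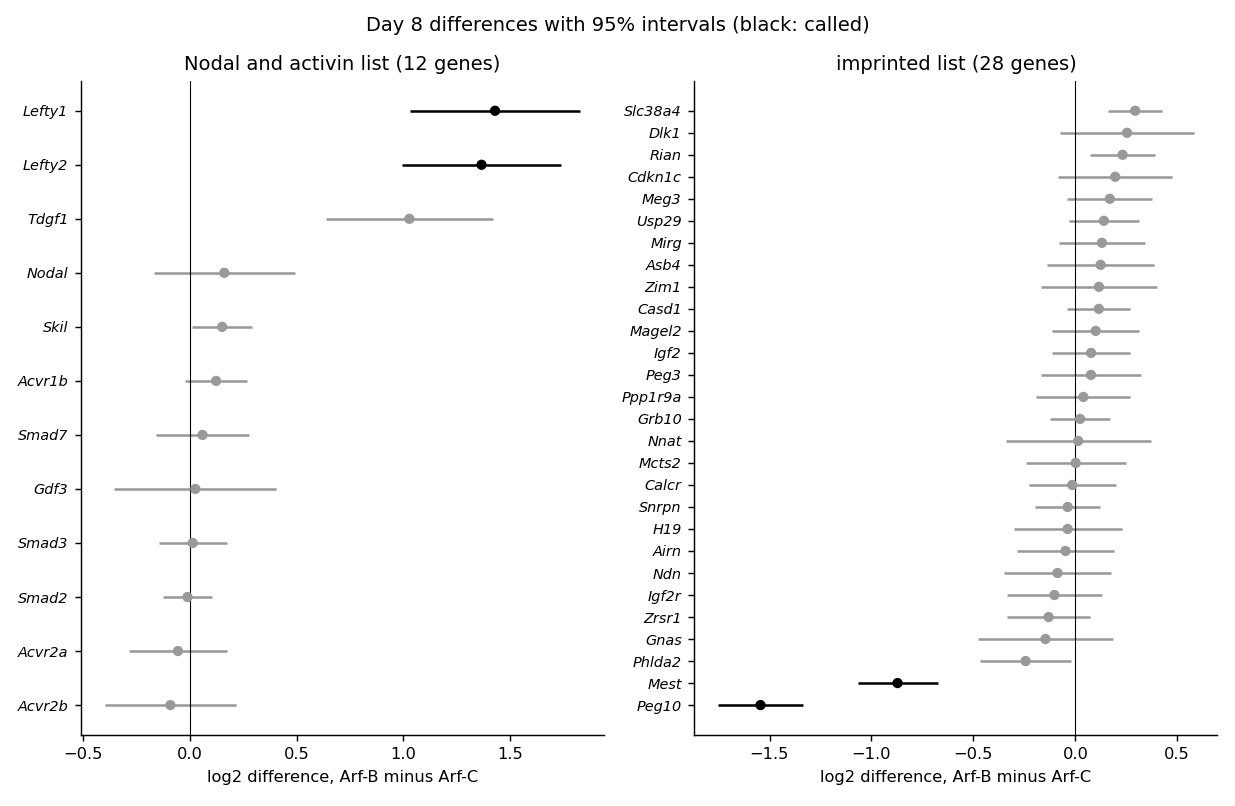
Log2 differences Arf-B minus Arf-C at day 8 (x axis, points) with 95% intervals (lines) for 12 of the 13 measured Nodal and activin genes and the 28 measured imprinted genes, called genes in black. Lefty1 and Lefty2 stand at 1.43 and 1.36, and Peg10 and Mest at -1.54 and -0.87.

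Ubap2l differed between the lines on both days. The gene (mm10 chromosome 3, 90000140 to 90052628, minus strand) encodes a ubiquitin-associated domain protein that takes part in the assembly of stress granules. At day 8 it was at 12.7, 13.2 and 13.5 FPKM in Arf-B cells, at 21.2, 22.4 and 21.5 FPKM in Arf-C cells, and at 21.9, 24.2 and 24 FPKM in Ctrlv2 cells. Arf-B cells stood alone at the lower level. Arf-B minus Arf-C gave a log2 difference of -0.68 (SE 0.094, adjusted p = 0.00575), and without replicate 1 of Arf-B the adjusted p was 0.0513. At day 0 it was at 11.4, 9.16 and 11.8 FPKM in Arf-B cells and at 19.5, 14.9 and 18.3 FPKM in Arf-C cells, a difference of -0.66 (adjusted p = 0.00613). The change of the difference between the days was -0.03 (interval -0.31 to 0.25). None of the 31 measured genes within 500 kb was called by limma or with voom, and 1 of them had an unadjusted p below 0.05. 4933434E20Rik overlaps the 5' end of Ubap2l on the opposite strand, and averaged 9.38 ± 0.551 FPKM in Arf-B cells and 9.05 ± 0.67 FPKM in Arf-C cells.

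Among histone genes, the linker histone gene Hist1h1c was called. It encodes histone H1.2, which binds the DNA between nucleosomes, and lies at mm10 chromosome 13, 23738808 to 23740367, plus strand. It was at 18.3, 20.2 and 16.8 FPKM in Arf-B cells, at 12.6, 11.9 and 10.8 FPKM in Arf-C cells, and at 8.81, 7.06 and 8.41 FPKM in Ctrlv2 cells. The 3 groups did not overlap. Between Arf-B and Arf-C the log2 difference was 0.60 (SE 0.0995, adjusted p = 0.0334). This call was lost in 7 of 16 alternative fits, among them those without replicate 1 or 2 of Arf-B (adjusted p = 0.132 and 0.232) and without replicate 1, 2 or 3 of Arf-C (0.0723, 0.121 and 0.145).

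The promoter of Hist1h1c is shown because most linker histone genes of this cluster hold the same pair of promoter boxes. The 250 bases before its start site (RefSeq, where the gene is H1f2, GRCm38.p6, chr13:23738557-23738806, plus strand) are given 5' to 3'. Capitals mark the H1 box AAACACA and the CCAAT box, searched on both strands, which do not overlap.
Hist1h1c: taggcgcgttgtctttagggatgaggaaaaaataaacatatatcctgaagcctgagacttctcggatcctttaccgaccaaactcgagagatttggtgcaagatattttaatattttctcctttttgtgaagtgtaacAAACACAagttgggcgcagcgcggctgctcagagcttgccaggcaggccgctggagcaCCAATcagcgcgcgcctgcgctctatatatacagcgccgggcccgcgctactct

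The H1 box begins 112 bases and the CCAAT box 54 bases before the start site. Of 32851 promoter windows of the same length 6.25% hold the H1 box, 33.8% hold CCAAT and 2.06% hold both. The windows of Hist1h1b, Hist1h1d and Hist1h1e hold both, that of Hist1h1a holds CCAAT alone, and that of H1f0 holds neither. These matches describe the sequence and are no evidence of binding.

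The 4 measured linker histone genes of the histone list all had a difference above 0. H1fx, another linker histone gene, is not in that list. H1f0, a linker histone gene outside the cluster, was at 112, 113 and 110 FPKM in Arf-B cells and at 89.6, 98.4 and 111 FPKM in Arf-C cells (log2 difference 0.17, interval -0.08 to 0.41). Hist1h1a (0.43, interval 0.11 to 0.75) and Hist1h1b (0.48, interval 0.13 to 0.83) averaged under 2 FPKM and were not called. Of the 23 measured core histone genes of the same cluster, 15 lay below 0 and 8 above, with a median of -0.09. None of the 23 was called by limma, and 7 had an unadjusted p below 0.05, against 5.3% of all genes. This split by kind was made after the values were seen. Hist1h2ak, Hist1h3a and Hist1h2bk had Arf-B means under the minimum of 0.5 FPKM, and Hist1h4f had an Arf-C mean under it. Such genes passed the minimum mainly through the line where they are higher, so these counts partly reflect the filter. The H2A gene Hist1h2ae was at 0.527, 1.22 and 0.817 FPKM in Arf-B cells and at 2.4, 1.33 and 2.77 FPKM in Arf-C cells (adjusted p = 0.868). Over the whole histone list 32 of 70 genes were measured, with 1 called higher in Arf-B cells, none lower, and a median difference of 0.03. The list median ranged from -0.06 to 0.06 over the alternative fits. Core histone genes are near copies of each other. Most transcripts of the cluster that holds Hist1h1c, from core and linker histone genes alike, carry no poly(A) tail. Their values in poly(A) libraries, those of Hist1h1c included, are uncertain.

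CT010467.1 and Gm25579 fall outside the rule by which genes were named and were chosen after their values were seen. CT010467.1, a ribosomal RNA gene on chromosome 17, was at 56.7, 61.3 and 63.3 FPKM in Arf-B cells, at 173, 97.4 and 124 FPKM in Arf-C cells, and at 87.7, 75.6 and 77.5 FPKM in Ctrlv2 cells. The log2 difference between Arf-B and Arf-C was -1.07 (adjusted p = 0.0105), and it was not past the threshold in the fit of the 6 libraries alone (adjusted p = 0.437) or without replicate 1 of Arf-B (adjusted p = 0.0775). Reads on ribosomal RNA genes made up 0.0157% to 0.0176% of reads in Arf-B libraries and 0.0266% to 0.046% in Arf-C libraries. Whether the amount of ribosomal RNA left after poly(A) selection plays a part in this difference was not tested. Gm25579 was read 4, 3 and 7 times in the Arf-B libraries and 0, 1 and 0 times in the Arf-C libraries. Its call (log2 difference 1.34, adjusted p = 0.0143) was past the threshold in 8 of 15 alternative fits. Gm25579 passed the minimum mainly through the Arf-B libraries, where it was higher, so its place among the genes compared partly reflects the filter.

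No gene of the cell types that the protocol aims at was called between the lines. Of 44 gene lists, 41 held no called gene, and their medians ranged from -0.12 (Hedgehog) to 0.26 (immediate early genes) over all 44 lists. Of 13 definitive endoderm genes 8 were measured. Foxa1, a pioneer factor of endoderm, averaged 10.6 ± 1.05 FPKM in Arf-B cells and 10.8 ± 0.594 FPKM in Arf-C cells (log2 difference -0.04, interval -0.26 to 0.18). Gata4, a zinc finger factor of endoderm, averaged 6.39 ± 0.309 FPKM in Arf-B cells and 7.01 ± 0.499 FPKM in Arf-C cells (-0.11, interval -0.33 to 0.10). The list median was -0.06, 6 of 8 genes lay below 0, and 1 had an unadjusted limma p below 0.05, with 0 called by voom. The endoderm factor Sox17 was under the minimum in all 6 libraries, at means of 0.233 FPKM in Arf-B cells, 0.256 FPKM in Arf-C cells and 1.17 FPKM in Ctrlv2 cells.

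Of 14 genes of pancreatic progenitors, 6 were measured and 0 were called by limma or voom and 0 had an unadjusted p below 0.05. The most abundant were Dlk1, described above, and Hes1, a Notch target, at means of 15.5 ± 1.26 FPKM in Arf-B cells and 14.9 ± 1.3 FPKM in Arf-C cells. The pancreatic regulator Pdx1 did not reach the minimum in 3 libraries, at means of 0.506 FPKM in Arf-B cells and 0.363 FPKM in Arf-C cells. The retinoic acid response was close between the lines as well. Of its 15 listed genes 14 were measured, with a median difference of 0.02 and no call, and 2 had an unadjusted p below 0.05. Stra8, a retinoic acid target, averaged 668 ± 15.1 FPKM in Arf-B cells and 707 ± 30.1 FPKM in Arf-C cells. Cyp26a1, which encodes an enzyme that degrades retinoic acid, averaged 378 ± 40.6 FPKM in Arf-B cells and 354 ± 50.1 FPKM in Arf-C cells. Of the 40 Hox entries, among which Hoxd4 has a second gene entry, 29 were measured and none was called, with 4 at an unadjusted p below 0.05. Hoxb1 averaged 75.4 ± 7.69 FPKM in Arf-B cells and 72.5 ± 6.72 FPKM in Arf-C cells.

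The summed level of naive pluripotency genes overlapped between the lines at day 8. The 13 measured genes of naive pluripotency summed to 631 to 869 FPKM in Arf-B libraries, 529 to 892 FPKM in Arf-C libraries and 107 to 139 FPKM in Ctrlv2 libraries. Dppa5a averaged 558 ± 89.1 FPKM in Arf-B cells and 536 ± 127 FPKM in Arf-C cells. Among the 12 core pluripotency genes none was called by limma, and 4 had an unadjusted p below 0.05, against 5.3% of all genes. The 1 called with voom (0.0413% of all genes) was Tdgf1, already described with the Nodal and activin list. Sox2 averaged 52.3 ± 6.95 FPKM in Arf-B cells and 59.7 ± 14.3 FPKM in Arf-C cells (-0.17, interval -0.46 to 0.13). The RNA-binding protein gene Lin28a averaged 75.8 ± 0.966 FPKM in Arf-B cells and 86.6 ± 3.14 FPKM in Arf-C cells, with no overlap (-0.19, adjusted p = 0.707). No listed marker of other cell types was called by limma. Trophoblast genes summed to 77.5 to 86.8 FPKM in Arf-B libraries and 75.2 to 104 FPKM in Arf-C libraries. Primitive and parietal endoderm genes summed to 253 to 256 FPKM in Arf-B libraries and 257 to 267 FPKM in Arf-C libraries, which did not overlap. Of these 14 genes, 3 had an unadjusted p below 0.05, against 5.3% of all genes, and 0 were called by voom. The 3 measured genes of the liver list, Apoe, Rbp4 and Apom, summed to 403 to 445 FPKM in Arf-B libraries and 473 to 494 FPKM in Arf-C libraries, again without overlap. All 3 lay below 0 in Arf-B cells, with 1 at an unadjusted p below 0.05 and 0 called by voom, while the defining liver genes Alb and Afp were not among the genes measured.

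The day 8 calls were set beside the same comparison before differentiation. At day 0, 43 of the 14535 genes were called between Arf-B and Arf-C (0.296%), with 8 higher in Arf-B cells (0.055%) and 35 lower (0.241%). At an unadjusted p below 0.05 there were 1603 genes (11%), and voom called 141. Leaving out single day 0 libraries brought the limma count of 43 to between 10 and 49. It was lowest without replicate 3 of Arf-C, then 12 without replicate 3 of Arf-B and 16 without replicate 1 of Arf-C. The days shared 1 called gene, Ubap2l, which is 12.5% of the day 8 calls and 2.33% of the day 0 calls. The 42 genes called at day 0 but not at day 8 had a median absolute difference of 0.49 at day 0 and of 0.061 at day 8. Over all genes it was 0.067 at day 8. Choosing genes by these calls favours a large day 0 value and a small day 8 value. Of the 42, 24 had the same sign on both days.

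The change of the Arf-B minus Arf-C difference from day 0 to day 8 was tested as an interaction, and 3 genes were called (0.0206%, beside 8.08% at an unadjusted p below 0.05), Peg10, CT010467.1 and Lefty2. Peg10 was at 0.294, 0.35 and 0.562 FPKM in Arf-B cells and at 0.34, 0.257 and 0.286 FPKM in Arf-C cells at day 0, which overlap. Its difference changed by -1.66 (SE 0.138, adjusted p = 5.63e-05). Lefty2 was at 23.1, 20.3 and 30.7 FPKM in Arf-B cells and at 31.6, 27.6 and 29.7 FPKM in Arf-C cells at day 0, many times its day 8 level. Its difference changed by 1.64 (SE 0.248, adjusted p = 0.0352), which was past the threshold in 10 of 22 alternative fits. Lefty1 changed by 1.57 (adjusted p = 0.0523) and Mest by -0.79 (adjusted p = 0.0508), both short of the threshold. Hist1h1c changed by 0.57 (interval 0.27 to 0.87, adjusted p = 0.22). At day 0 Lefty1, Lefty2, Mest and Hist1h1c had differences of -0.14, -0.27, -0.08 and 0.04, none of them called.

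**Figure D4:**
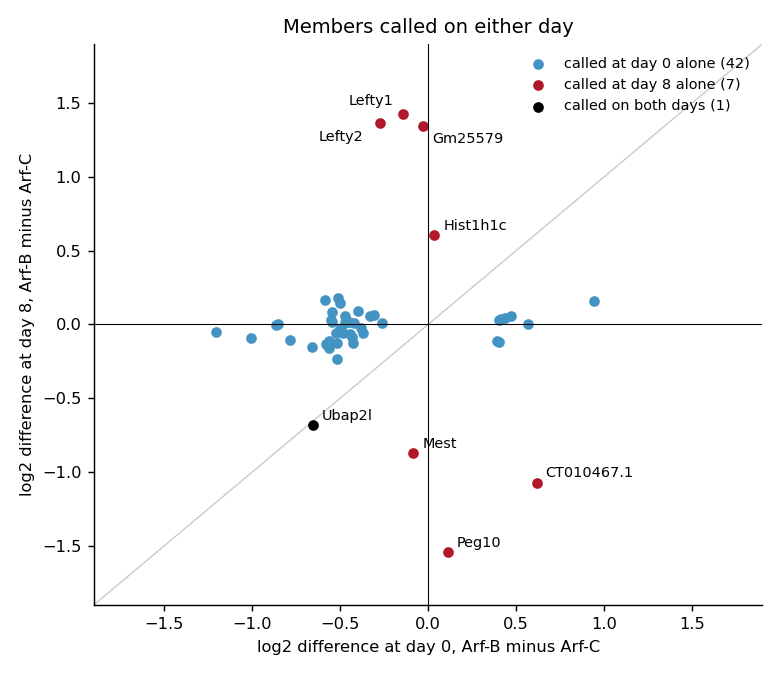
Log2 difference Arf-B minus Arf-C at day 0 (x axis) and at day 8 (y axis) for the 50 genes called on either day, with a grey line where both are equal. The 42 genes called at day 0 alone spread along the x axis, the 7 called at day 8 alone along the y axis, and Ubap2l lies near the line at -0.66 and -0.68. Grouping genes by the day of their call favours such a spread.

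Against Ctrlv2 cells at day 8, 5239 of the 14535 genes were called in Arf-B cells (36%) and 5288 in Arf-C cells (36.4%). These comparisons share the 3 Ctrlv2 libraries and are given side by side. Peg10 was lower than in Ctrlv2 cells by log2 differences of -6.26 in Arf-B cells and -4.72 in Arf-C cells (adjusted p = 7.58e-16 and 5.71e-14). Mest was lower by -4.55 in Arf-B cells and -3.68 in Arf-C cells. Hist1h1c was higher than in Ctrlv2 cells by 1.10 in Arf-B cells (adjusted p = 6.46e-07) and 0.49 in Arf-C cells (adjusted p = 0.00121). Lefty1 differed by 0.86 in Arf-B cells and -0.57 in Arf-C cells (adjusted p = 0.00227 and 0.0293), on opposite sides of Ctrlv2 cells. Lefty2 differed by -0.38 in Arf-B cells (adjusted p = 0.108) and -1.75 in Arf-C cells (adjusted p = 2.05e-06). Ubap2l differed by -0.79 in Arf-B cells (adjusted p = 1.14e-05) and -0.10 in Arf-C cells (adjusted p = 0.45).

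Differences were also summarised by chromosome. On chromosome 15 the median log2 difference at day 8 was 0.073, and 447 of its 576 genes (77.6%) lay above 0. On the other 18 chromosomes the median was -0.014 to 0.010, with 43.8% to 53.4% of genes above 0. The median ratio of Arf-B to Arf-C means on chromosome 15, without a pseudocount and for genes of at least 5 FPKM, was 1.06. None of its 576 genes was called by limma or with voom. An unadjusted p below 0.05 was found for 59, against 5.3% of all genes, and 52 of the 59 were higher in Arf-B cells. At day 0 the chromosome's median was -0.005. The shift was spread along the chromosome. All 9 of its windows of 10 Mb with at least 10 genes had medians of 0.049 to 0.092, and the 7 largest of 245 windows in the genome were among them. The largest, from 100 to 110 Mb, had 64 of 75 genes above 0. The next were 50 to 60 Mb (32 of 37 genes, median 0.080) and 0 to 10 Mb (20 of 25 genes, median 0.079). Outside chromosome 15 the largest absolute window median was 0.060.

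Per library, the median deviation of chromosome 15 genes from their mean over 9 day 8 libraries was 0.049, 0.067 and 0.035 in Arf-B cells, 0.001, -0.033 and -0.032 in Arf-C cells and -0.028, -0.030 and -0.017 in Ctrlv2 cells. The Arf-B libraries lay above all 6 others. Other chromosomes deviated as far within single libraries, from -0.066 to 0.019 in Arf-B cells and from -0.062 to 0.041 in Arf-C cells. Their Arf-B minus Arf-C difference of means stayed between -0.020 and 0.011. Leaving out 1 library at a time gave chromosome 15 medians of 0.061 to 0.085, and the 16 alternative fits gave 0.061 to 0.105. No test was made of this shift, and its source was not tested.

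**Figure D5:**
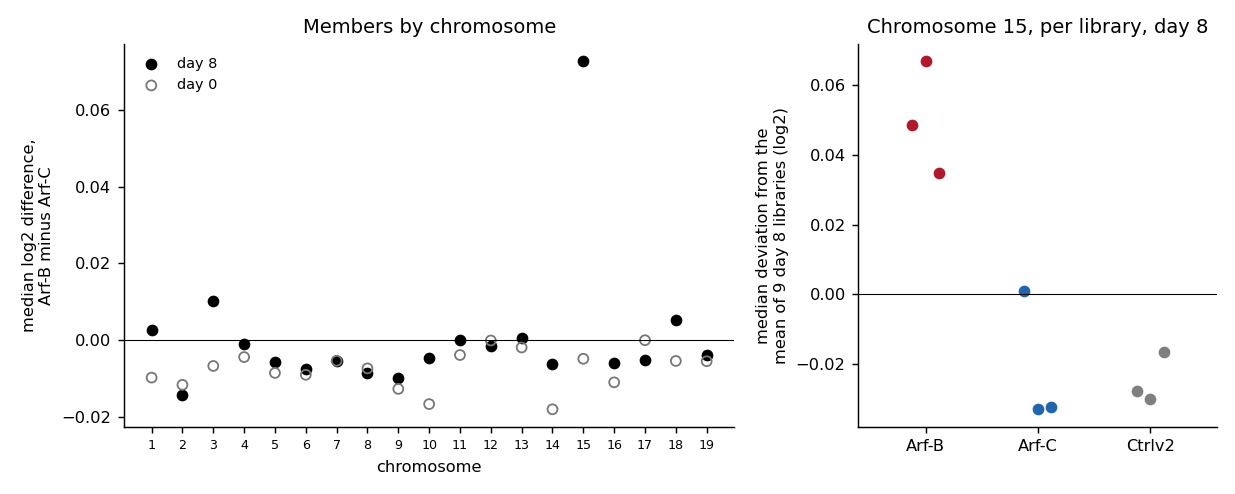
Left, median log2 difference Arf-B minus Arf-C of the genes of each chromosome at day 8 (filled) and at day 0 (open). Right, median deviation of chromosome 15 genes from their mean over the 9 day 8 libraries, 1 point per library, with Arf-B between 0.035 and 0.067 and Arf-C and Ctrlv2 at 0.001 or below.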

How the data were processed

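Polyadenylated RNA was sequenced in 18 libraries, of which the 3 Arf-B and 3 Arf-C libraries of day 8 are compared. The authors deposited a table of FPKM values per gene with coordinates and gene lengths. HISAT2, featureCounts, DESeq2 and mm10 are named in the submitters' processing notes, with no settings, and the sources used here do not state how strand or reads with several matches were handled. Multiplied by gene length, all 413772 values above 0 fall on whole reads (tolerance 0.001 reads), which gave the read numbers and depths.

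From these values log2(FPKM + 1) was fitted with limma 3.58.1 in R 4.3.3, with 1 coefficient for each of the 6 groups over all 18 libraries, so that all groups share the estimate of spread, and with trended, robust moderation. Genes that reached 0.5 FPKM in 3 or more of the 18 libraries were tested (17200), p-values were adjusted over all of them (Benjamini-Hochberg), and an adjusted p below 0.05 was a call. Intervals are 95% intervals of that fit and are not adjusted. The procedure was tested on simulated data. Members and gene lists were chosen with earlier results of these data known. Cdkn2a, Cdkn2b, Trp53, Mdm2, Cdkn1a and Npm1 were always named. Other genes were named if called with a symbol that is not a predicted one, at least 5 FPKM in the higher line and no overlap. Of each list described, up to 4 called genes or the 2 most abundant were named. Other named genes were chosen after their values were seen, and some genes are not reported here. Figures were made with matplotlib 3.10.9 in Python 3.11.15, and promoter sequences come from RefSeq (GRCm38.p6), where 10112 of the 14535 genes and 3 of the 8 called genes were matched. For Ubap2l the window lies mostly in annotated exons and is not printed. Alternatives were a pseudocount of 0.1, no filter, a mean of at least 1 FPKM, 2 other scalings, a fit of the libraries compared alone, moderation without trend and robust settings, a replicate block, voom on the read numbers, thinned reads and leaving out each library.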

Additional observations from a re-analysis of the deposited data

Results flagged for a closer look

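The difference between Arf-B and Arf-C differed between the days, by the test of the interaction over all genes, for Peg10, CT010467.1 and Lefty2. For Peg10 the log2 difference at day 8 minus that at day 0 was -1.66 (limma, adjusted p = 5.63e-05), and it was past the threshold in each of 22 alternative fits. For the ribosomal RNA gene CT010467.1 it was -1.69 (adjusted p = 0.00781), with Arf-B libraries at 56.7 to 63.3 FPKM and Arf-C libraries at 97.4 to 173 FPKM at day 8, and Arf-B libraries at 43.3 to 59.2 FPKM and Arf-C libraries at 30.4 to 35.3 FPKM at day 0. It was past the threshold in 21 of 22 alternative fits, and not in the fit of the Arf libraries alone (adjusted p = 0.0885). For Lefty2 it was 1.64 (adjusted p = 0.0352), which was not past the threshold in 12 of 22 alternative fits, whose adjusted p-values ranged up to 0.128.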

How the results depend on the processing

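Of the day 8 count of 8 calls, a fit of the 6 libraries alone gave 3 (1 higher and 2 lower in Arf-B cells, Peg10 and Ubap2l among them), and leaving out single libraries gave 5 to 9, the lowest without replicate 1 of Arf-B (3 to 3 higher and 2 to 6 lower). Moderation without trend and robust settings gave 7 lower in Arf-B cells, and voom gave 2 higher. Beside the replicate block below, the other alternatives stayed within 1.5 times, and no value with a call changed direction in any alternative. The day 0 count of 43 became 65 with a mean of at least 1 FPKM, 2 in the fit of its own libraries, 141 with voom, 23 with thinned reads and 10 to 49 without single libraries. The count of 3 for the change between days became 9 with a pseudocount of 0.1, 9 with a mean of at least 1 FPKM, 6 with median-ratio size factors, 10 with libraries rescaled to the same sum, 11 with voom, 5 with thinned reads and 2 to 4 without single libraries. The cause was not tested, beyond the fewer libraries or genes that these fits hold by construction.

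Replicate numbers were not used as pairs. Same-numbered Arf-B and Arf-C libraries of day 8 had correlations of their deviations of 0.110, -0.020 and 0.173 across genes. With the replicate number as a block, 6 genes were called at day 8, 2 of them higher in Arf-B cells (Hist1h1c and Gm25579 were not past the threshold, with adjusted p-values of 0.165 and 0.0827), 23 at day 0 and 5 for the change between days.

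The smallest day 8 difference called was 0.60 on the log2 scale, and for genes of 0.25 to 1 FPKM the median 95% interval reached 0.28 to either side.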

Other observations

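Several gene groups that the comparison left without a call had most of their genes on one side. Of 11 measured immediate early genes, 10 lay above 0 in Arf-B cells, with a median log2 difference of 0.26. None of the 11 was called by limma or voom, and 4 had an unadjusted p below 0.05, against 5.3% of all genes. Their most abundant member Ier2 averaged 58.6 ± 4.35 FPKM in Arf-B cells and 53.2 ± 2.02 FPKM in Arf-C cells. All 9 measured smooth muscle and contractile genes lay above 0 (median 0.13). None of these 9 was called by limma or voom, and 0 had an unadjusted p below 0.05. Their sums overlapped, at 166 to 197 FPKM in Arf-B libraries and 148 to 198 FPKM in Arf-C libraries. Of 17 genes of the Atf4 response to amino acid stress, 16 lay above 0 (median 0.13), with Atf4 at 127 ± 3.54 FPKM in Arf-B cells and 116 ± 5.07 FPKM in Arf-C cells. Of 18 hypoxia and glycolysis entries, among which Aldoa has a second gene entry, 15 lay above 0 (median 0.13). The glycolytic enzyme genes Pkm and Aldoa averaged 339 ± 24.9 and 302 ± 32 FPKM in Arf-B cells, against 291 ± 11.3 and 244 ± 5.18 FPKM in Arf-C cells. The lines did not overlap for either gene. Of the 18 entries, 7 had Arf-B above Arf-C without overlap, against 6.58% of all genes. The Atf4 list and the glycolysis list each had 3 genes at an unadjusted p below 0.05 and no call by limma or voom. Of 75 ribosomal protein genes, 63 lay below 0, with a median of -0.10, no call by limma or voom and 4 at an unadjusted p below 0.05, and in 23 of them Arf-C lay above Arf-B without overlap, against 6.82% of all genes. The medians of these lists kept their sign under each of the 16 alternative fits. Genes of a list are not independent replicates, so these counts describe the 6 libraries and are no test.

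On chromosome Y, which the rule leaves out, Ddx3y was at 3.75, 3.42 and 4.48 FPKM in Arf-B cells and at 0.128, 0.337 and 0.254 FPKM in Arf-C cells at day 8. Uty was at 2.39, 1.97 and 2.13 FPKM in Arf-B cells and at 0.0247, 0.0239 and 0.09 FPKM in Arf-C cells. Both were called higher in Arf-B cells (adjusted p = 0.00398 and 8.02e-06), and they had like differences at day 0 (2.67 and 1.86).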
